A study of Drosophila melanogaster with 75 samples.

Results

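The odorant-binding proteins of the fruit fly Drosophila melanogaster were followed in the heads of males that had or had not been with a female. Members were taken by name: every probe set that the platform annotation gives exactly 1 gene symbol starting with Obp and a number, together with lush, which is the same kind of gene under another name. This gave 51 of 18769 probe sets, for 48 of the 52 family members in a current gene table. Obp19a, Obp19c and Obp59a have 2 probe sets each. Obp50b, Obp50c, Obp57d and Obp83a have no probe set of their own symbol alone, and 4 probe sets shared between an Obp gene and another gene were left out. The choice used names and no measured value.

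Odorant-binding proteins are small, soluble proteins that support cells secrete into the fluid around the dendrites of chemosensory neurons. In olfactory hairs (sensilla) they bind odorants and pheromones near the receptors, and the best known of them, lush, is needed for normal detection of the male pheromone cis-vaccenyl acetate. Others are made in taste sensilla, in the male reproductive tract, where some are passed to the female with the seminal fluid, or in fat body and glia. Membership of the family rests on the protein, not on a role in smell.

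All flies were 5-day-old virgin males of an isogenized Canton-S stock, a laboratory wild type, and each of the 15 arrays carried head RNA from a pool of 20 males. In the courtship arm (5 arrays) each male met a cauterized virgin female for 20 min, and in the control arm (5 arrays) no female for 20 min. The remaining 5 arrays are titled male. Their treatment entry is the courtship entry again, their title, source name and sample code differ from it, and the labels do not say what these males met. The labels state for every arm, control included, that collected males had courted for 70% of the observation. The labels do not say whether the pools came from separate rearings, so p-values measure the spread between pools. Values below are log2 of the intensities that the authors computed with GC-RMA in R, so a difference of 1 is a doubling. Levels of different probe sets cannot be set against each other, because probes differ in how well they bind.

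Markers of head tissues were mostly measured in these pools, and markers of the reproductive tract mostly were not. All 5 photoreceptor markers measured were above the detection filter (a mean log2 of at least 4 over the 15 arrays), with list means of 14.13 to 14.50 on single arrays, and so were 6 of 6 neuron, 7 of 7 glia and 8 of 8 muscle markers, 9 of 13 fat body and 9 of 12 haemocyte markers. Of the male accessory gland list 1 of 12 genes passed (Acp95EF), of the testis list 0 of 12 and of the ovary list 1 of 7, the yolk protein gene Yp3, which is also a fat body gene. RNA of 3 pools stood apart in quality before any comparison. The mean log2 ratio of 3' to 5' signal was taken over 5 pairs of control probe sets, for actin, GAPDH and eIF-4a. It was 3.99 for male replicate 1, 3.54 for control replicate 1 and 3.26 for male replicate 5, and 2.50 to 2.90 on the other 12 arrays.

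Of the 51 probe sets 20, for 20 genes, passed the filter and 31 did not. Over the whole array 8926 of 18769 probe sets passed. In the following sentences a level is the mean log2 intensity over the 15 arrays. Among 8 genes known from antennal olfactory sensilla, 4 passed: Obp56d at 14.01, Obp28a at 7.12, Obp69a at 6.84 and lush at 5.07. Obp28a is abundant in basiconic sensilla of the antenna, and Obp69a has been tied to the social responsiveness of males. Below the filter were Obp83b (also called OS-E, 2.34), a trichoid sensillum protein, Obp84a (2.28) and Obp59a (2.40 and 2.09), both of coeloconic sensilla, and Obp19a (2.32 and 2.12). The values of Obp83b were between 2.28 and 2.56 on all 15 arrays.

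Among 6 genes of taste sensilla, 5 passed. These were Obp49a at 12.61, which is needed for bitter compounds to suppress the response to sugar, the neighbouring genes Obp57c (12.67), Obp57b (11.39) and Obp57a (11.46), and Obp19b (9.34). Obp57e, which with Obp57d shapes the response to plant acids, stood at 2.49. Of 7 genes known from the seminal fluid and the male reproductive tract, 3 were also measured above the filter in these heads: Obp56g (13.22), Obp56e (10.98) and Obp8a (7.42). The other 4 were Obp56f (2.44), Obp22a (2.29), Obp51a (2.20) and Obp56i (2.19).

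Of 6 genes known in the head from more than sensilla, 4 passed: Obp99c (14.66), Obp99b (14.40), Obp19d (14.32) and Obp44a (14.17). Obp99b is a male-enriched product of the fat body of the head, Obp19d is found along chemosensory epithelia, and Obp44a is made by glia of the central nervous system. Obp99d (2.59) and Obp99a (2.41) did not pass. The members in none of these groups included Obp18a (11.72), Obp56h (11.33), which affects mating behaviour and the hydrocarbons of the male cuticle, Obp56a (6.70) and 1 of the Obp19c probe sets (5.36). The other Obp19c probe set read 2.35.

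The remaining members were below the filter. Just outside it were Obp83g at 3.83 and Obp83cd at 3.78, and the lowest members that passed were lush at 5.07 and Obp19c at 5.36. Obp83ef stood at 2.50. The other 14 were Obp85a (2.42), Obp93a (2.37), Obp46a (2.31), Obp50d (2.25), Obp58c (2.22), Obp56b (2.21), Obp56c (2.20), Obp58b (2.20), Obp58d (2.17), Obp47a (2.17), Obp73a (2.15), Obp50e (2.14), Obp47b (2.11) and Obp50a (2.04). Of the 31 members below the filter, 29 did not reach 4 on any array, and the highest single value among those 29 was 3.59. The filter is one on the R GC-RMA values and does not show that a transcript is absent. In MAS5, for example, Obp83ef had a mean log2 of 6.67, and 54.3% of probe sets were at or below it, and in dChip PM 58.6% of probe sets were at or below Obp99a.

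**Figure D1:**
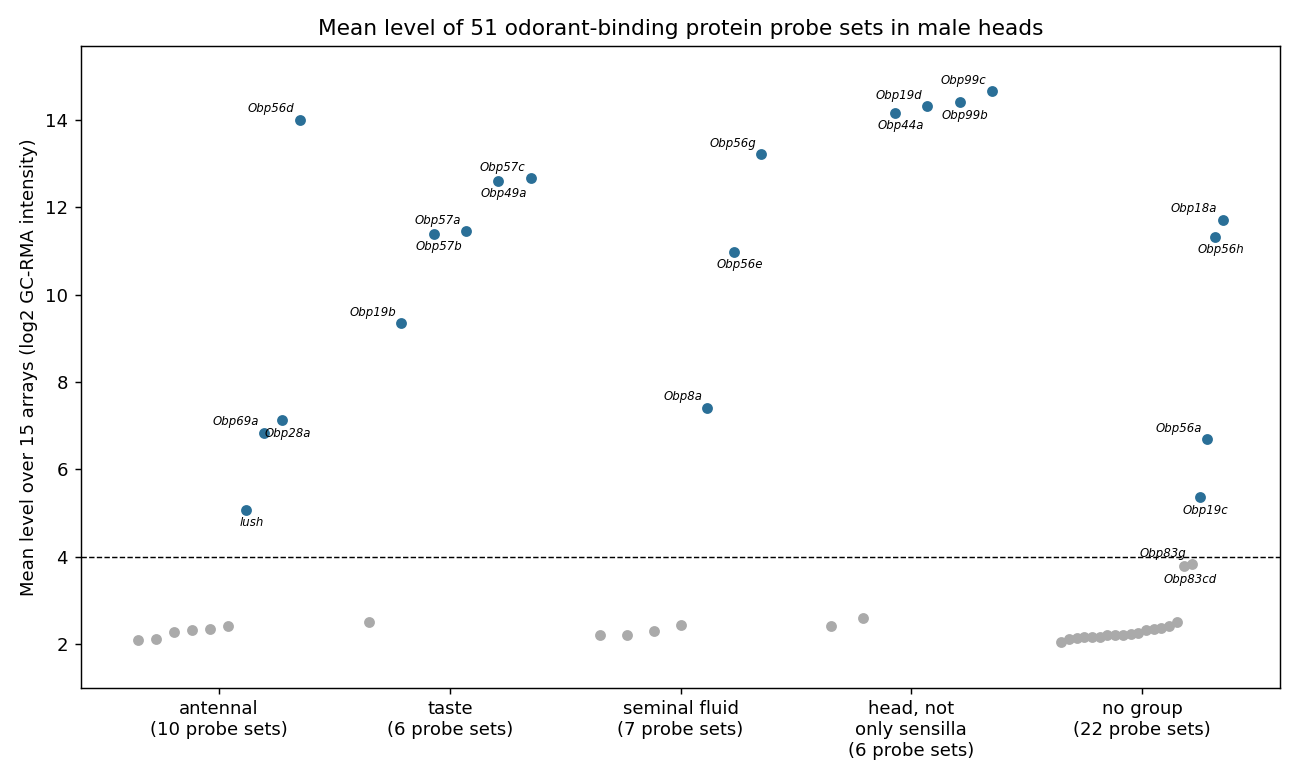
Mean log2 GC-RMA intensity over 15 arrays (vertical axis) of each of the 51 odorant-binding protein probe sets, 1 point each, by the tissue they are known from (horizontal axis). The dashed line is the filter at 4: 20 probe sets (blue) lie above it and 31 (grey) below, of which 29 have means of 2.04 to 2.59.

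Many of these genes lie in tandem, and some runs passed the filter only in part. In the gene table, with at most 1 other gene between members, Obp56a to Obp56f form a run of 6 of which 3 passed the filter (Obp56a, Obp56d and Obp56e). All of Obp57c, Obp57b and Obp57a passed, as did both of Obp56g and Obp56h. Of Obp19a to Obp19d 3 of 4 passed, and of Obp99c, Obp99d and Obp99b 2 of 3. None of the 3 genes Obp83cd, Obp83ef and Obp83g, of the 4 genes Obp59a, Obp58b, Obp58c and Obp58d, or of the 3 measured genes among Obp50a to Obp50e had a mean of 4. The spread within arms was small for bright members: the pooled SD had a median of 0.160 over the 13 members with a mean of at least 10 and of 0.355 over the 7 with a mean between 4 and 10. Over all 20 it ran from 0.0951 for Obp44a to 0.722 for Obp28a, with a median of 0.179, the same as over all 8926 probe sets tested.

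The other chemosensory genes measured in these heads give the setting. Receptor transcripts were mostly below the filter: 2 of 56 odorant receptor genes passed (Or43b and Or63a), 0 of 56 gustatory receptor genes and 3 of 53 ionotropic receptor genes (Ir75a, Ir76a and Ir68a). Of 6 core genes of olfactory neurons only Snmp1, which acts with receptors for fatty acid pheromones, passed, at 4.79. The odorant co-receptor Orco stood at 2.24 (2.14 to 3.08 over the arrays) and the co-receptor Ir25a at 2.19. Of 6 genes for odorant-degrading enzymes and other proteins of the sensillum fluid, 4 passed (EbpIII, Ugt35B1, Cyp6w1 and Phk-3), and of the CheA and CheB genes 1 of 12. Of the odorant-binding protein genes 20 of 48 passed the same filter. By probe sets it was 20 of 51, a smaller share than the 8926 of 18769 over the whole array. The family thus passed more often than the receptors but not more often than probe sets at large. In bulk heads, fewer cells of a type and less RNA per cell cannot be told apart.

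The comparison of the male arm with the control arm had the largest differences. No member passed the adjusted threshold of 0.05 (limma with Benjamini-Hochberg adjustment), against 327 of 8926 probe sets (3.66%). In other settings at the same threshold 0 to 5 members passed. The 5 came with array weights, where far more of all probe sets were called as well, as the last section gives. All 20 members had a higher mean in the male arm, where 52.9% of all probe sets did. At an unadjusted p under 0.05, 9 of 20 (45%) were higher, against 18.5% of all probe sets, and 0 were lower, against 15.6%. Members tended to stand high or low together on an array, so these counts are not of separate observations. The median difference was 0.21 over the members and 0.02 over all probe sets tested. The 9 were Obp28a, Obp69a and lush of the antennal group, Obp99b and Obp99c, Obp56e and Obp8a, Obp57c, and Obp18a.

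Obp28a had the largest difference. Its log2 level on the 5 control arrays was 6.17, 5.94, 6.51, 6.01 and 7.21, and on the male arrays 8.21, 7.14, 8.55, 7.60 and 7.62. On the courtship arrays it was 7.04, 5.85, 6.69, 8.39 and 7.86. Of the male values only that of replicate 2 lay under the highest control value, and the courtship arrays ran from below the lowest control to near the highest male value. The male arm exceeded the control arm by 1.46 ± 0.42 (SE, n = 5 arrays an arm, limma), or 2.75-fold, with a 95% confidence interval of 0.57 to 2.35 and an adjusted p of 0.0526. Without male replicates 1 and 5, whose 3' to 5' ratios were high, the difference was 1.40, and without control replicate 1 as well it was 1.35. In the authors' other processings it was 1.28 (GeneSpring GC-RMA), 1.06 (MAS5), 1.06 (dChip PM-MM) and 0.55 (dChip PM), with adjusted p-values of 0.0625 to 0.0850. The call changed with the setting: Obp28a had an adjusted p under 0.05 in 8 of 32 settings, and its difference was above 0 in 32 of 32. In several settings, such as the replicate block and the fits that left out a courtship array, the difference itself could not change. The count of signs is therefore no separate support.

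lush, the pheromone-binding member, differed less. Control arrays read 4.57, 4.96, 4.95, 4.82 and 5.04, courtship arrays 4.80, 4.92, 4.95, 5.32 and 5.33, and male arrays 5.67, 5.19, 5.40, 5.15 and 5.03. The lowest male value was just under the highest control value, so the arms overlapped by that pair alone. The difference between male and control was 0.42 ± 0.14 (SE, limma adjusted p = 0.0699), or 1.34-fold. Its largest male value was on replicate 1, the array with the highest 3' to 5' ratio, and the difference was 0.38 without male replicates 1 and 5 and 0.30 without control replicate 1 as well. It was 0.54, 0.16, 0.25 and 0.43 in GeneSpring GC-RMA, MAS5, dChip PM and dChip PM-MM, and it was called in 2 of 32 settings.

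Obp69a had the largest SD of the 20 members within the control arm, 0.56. Its control values were 7.22, 6.67, 6.71, 6.14 and 5.79, its courtship values 6.95, 6.41, 7.05, 7.01 and 6.87, and its male values 7.77, 6.90, 7.42, 6.47 and 7.25. The arms overlapped over most of their range. The male arm was 0.66 ± 0.27 higher (SE, limma adjusted p = 0.104), without male replicates 1 and 5 the difference was 0.42, and without control replicate 1 as well it was 0.60. Obp56d, known from both antennal and taste organs, had control values of 13.74, 13.70, 14.01, 14.05 and 14.04, courtship values of 13.68, 13.66, 14.24, 14.25 and 14.20 and male values of 14.20, 14.07, 14.24, 13.91 and 14.20. Its courtship values fell into a low pair and a high trio. Over the 4 antennal members tested the median difference between male and control was 0.54, with 4 of 4 higher and 0 called.

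**Figure D2:**
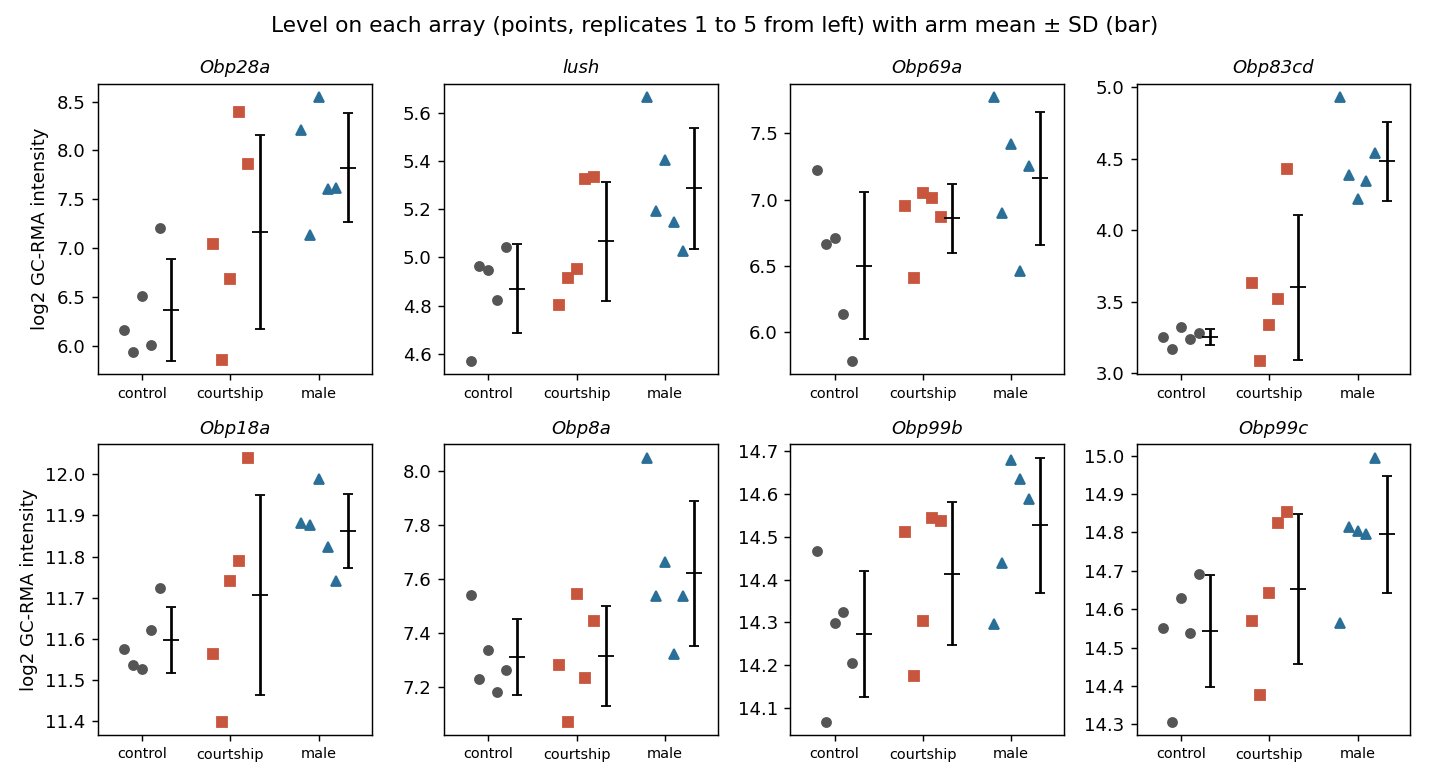
Log2 GC-RMA intensity (vertical axis, each panel with its own range) of 8 members on the 5 control, 5 courtship and 5 male arrays, with the arm mean ± SD as a bar. Male arrays lie above all control arrays for Obp83cd and Obp18a, and the arms overlap for the other 6.

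Obp18a was the only member of the 20 whose control and male arrays did not overlap with the male arm higher (5%, against 7.26% of all probe sets tested). Control arrays read 11.58, 11.54, 11.53, 11.62 and 11.72, and male arrays 11.88, 11.88, 11.99, 11.82 and 11.74. The courtship arrays, at 11.56, 11.40, 11.74, 11.79 and 12.04, spanned both. The difference of 0.27 ± 0.10 (SE) had an adjusted p of 0.0884 in limma. It was 0.30 without male replicates 1 and 5 and 0.18 when blocked by the leading letter of the code, which some arrays of different arms share and the labels do not explain.

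The bright genes of the head beyond the sensilla differed by small amounts. Obp99b read 14.47, 14.07, 14.30, 14.33 and 14.21 on control arrays, 14.51, 14.17, 14.30, 14.54 and 14.54 on courtship arrays and 14.30, 14.44, 14.68, 14.63 and 14.59 on male arrays. Of the male arrays 3 were above every control array. The difference was 0.25 ± 0.10 (SE, limma adjusted p = 0.0985), 0.31 without male replicates 1 and 5, and 0.14 when blocked by the code letter. Obp99c read 14.55, 14.31, 14.63, 14.54 and 14.69 on control arrays, 14.57, 14.38, 14.64, 14.83 and 14.85 on courtship arrays and 14.57, 14.81, 14.80, 14.80 and 15.00 on male arrays. Here 4 of 5 male arrays exceeded all controls, and the difference was also 0.25 ± 0.10 (SE, limma adjusted p = 0.110).

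Obp19d and Obp44a differed least in that group. Obp19d read 14.08, 14.16, 14.29, 14.27 and 14.33 on control arrays, 14.18, 14.13, 14.38, 14.58 and 14.53 on courtship arrays and 14.42, 14.44, 14.40, 14.34 and 14.24 on male arrays. Obp44a, the glial member, read 14.10, 14.06, 14.16, 14.23 and 14.18 on control arrays, 14.10, 14.06, 14.16, 14.27 and 14.17 on courtship arrays and 14.27, 14.28, 14.21, 13.99 and 14.29 on male arrays. Control and courtship arrays of Obp44a covered nearly the same range, and male replicate 4 was the lowest of all 15. Over the 4 genes the median difference between male and control was 0.20, with 0 called. Beside it, the fat body list had means of 11.94 to 12.11 on control arrays, 12.06 to 12.38 on courtship arrays and 12.24 to 12.33 on male arrays, with 8 of 9 tested genes higher in the male arm and a median difference of 0.13. Fbp1, Fbp2, Yp1 and Yp2 of that list were below the filter. The part of fat body RNA in the differences of Obp99b and its group was not tested.

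The members shared with the seminal fluid included Obp8a and Obp56e. Obp8a read 7.54, 7.23, 7.34, 7.18 and 7.26 on control arrays, 7.28, 7.07, 7.54, 7.23 and 7.45 on courtship arrays and 8.05, 7.53, 7.66, 7.32 and 7.54 on male arrays. The highest of all was male replicate 1. The difference between male and control was 0.31 ± 0.12 (SE, limma adjusted p = 0.103). It was 0.20 without male replicates 1 and 5, which is smaller by over 1.5 times, and 0.25 without control replicate 1 as well. Obp56e read 10.51, 10.63, 10.82, 10.99 and 10.96 on control arrays, 10.80, 10.57, 11.20, 11.13 and 11.30 on courtship arrays and 11.35, 11.19, 11.33, 10.67 and 11.23 on male arrays. Only male replicate 4 lay inside the control range, and the difference was 0.38 ± 0.16 (SE, limma adjusted p = 0.115). The median over Obp56g, Obp56e and Obp8a was 0.31.

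Of the taste members, Obp57c read 12.51, 12.54, 12.54, 12.68 and 12.59 on control arrays, 12.51, 12.45, 12.82, 12.66 and 12.77 on courtship arrays and 12.82, 12.85, 12.93, 12.48 and 12.84 on male arrays. Again 4 of 5 male arrays were above all controls and male replicate 4 was below them. The difference was 0.21 ± 0.09 (SE, limma adjusted p = 0.121), and 0.29 without male replicate 4. The 5 taste members had a median difference of 0.14. Obp49a had the smallest difference of all 20 members, 0.0031 ± 0.097 (SE), and its sign changed with the setting, being above 0 in 24 of 32. Over the 32 settings the difference ran from 0.13 to 0.36 for Obp99b, from 0.09 to 0.31 for Obp99c, from 0.31 to 0.84 for Obp69a and from 0.14 to 0.39 for Obp8a. The difference was not above 0 in 3 settings for Obp56h and in 1 each for Obp19b, Obp19c and Obp44a. For Obp56g this was so in 2 settings, with a value of 0 after rounding in dChip PM-MM. The other 14 members had positive differences in all 32. Settings such as those that left out a courtship array could not change a sign, so these counts are no separate support.

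Obp83cd, 1 of the members below the filter, was singled out after its values had been seen. Its control values were 3.25, 3.17, 3.32, 3.23 and 3.28, and its male values 4.93, 4.38, 4.22, 4.34 and 4.54. Courtship values were 3.63, 3.08, 3.33, 3.52 and 4.43. All male arrays were above all control arrays. They were so in each of the authors' 5 processings, for example at 6.32 to 6.62 against 5.02 to 6.07 in MAS5. The 5 processings start from the same arrays, so the repeat is no separate support. Of the probe sets that passed the filter, 7.26% had arms without overlap and the male arm higher. That share was not taken over dim probe sets, so the lack of overlap shows nothing particular to Obp83cd. The difference was 1.23 ± 0.21 (SE) in R GC-RMA, and smaller in the others, at 0.84 (GeneSpring GC-RMA), 0.76 (MAS5), 0.46 (dChip PM-MM) and 0.34 (dChip PM). In a fit to all 18769 probe sets with no filter its limma adjusted p was 0.0560, where 12 probe sets (0.0639%) passed. A filter of log2 of at least 4 on at least 5 arrays let Obp83cd in through the male arm, since no control array reached 4. Its call in that fit (335 of 8950 probe sets called, 3.74%) is decided by the filter and supports no difference.

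The neighbours of Obp83cd were also higher in the male arm on average, by 0.51 ± 0.24 (SE) for Obp83ef and 0.40 ± 0.32 (SE) for Obp83g. In the fit with no filter their limma adjusted p-values were 0.278 and 0.470. Obp83ef read 2.20, 2.22, 2.40, 2.19 and 2.29 on control arrays and 2.50, 2.58, 3.59, 2.43 and 2.76 on male arrays, which did not overlap but stood near the bottom of the scale. Arms without overlap were not counted over all dim probe sets, so this shows nothing particular to these neighbours. Obp83g was high on male replicates 1 and 5 (4.42 and 4.80) and courtship replicates 3 and 5 (4.21 and 5.06), and between 3.46 and 3.63 on the other 11 arrays. The other 28 members below the filter, with means under 3, shifted with the bulk of such probe sets. In the male arm 28 of 28 were higher than in control, by 0.0046 to 0.0905, as were 88.7% of all 9388 probe sets with a mean under 3. In the courtship arm 28 of 28 were lower than in control (87.8% of all 9388) and 28 of 28 lower than in the male arm (91.5%). Male replicate 5 was the highest array for 22 of the 31 members below the filter. That count was not made over all dim probe sets, so it shows nothing particular to these members. The part of the 3' to 5' ratio of male replicate 5 in it was not tested.

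**Figure D3:**
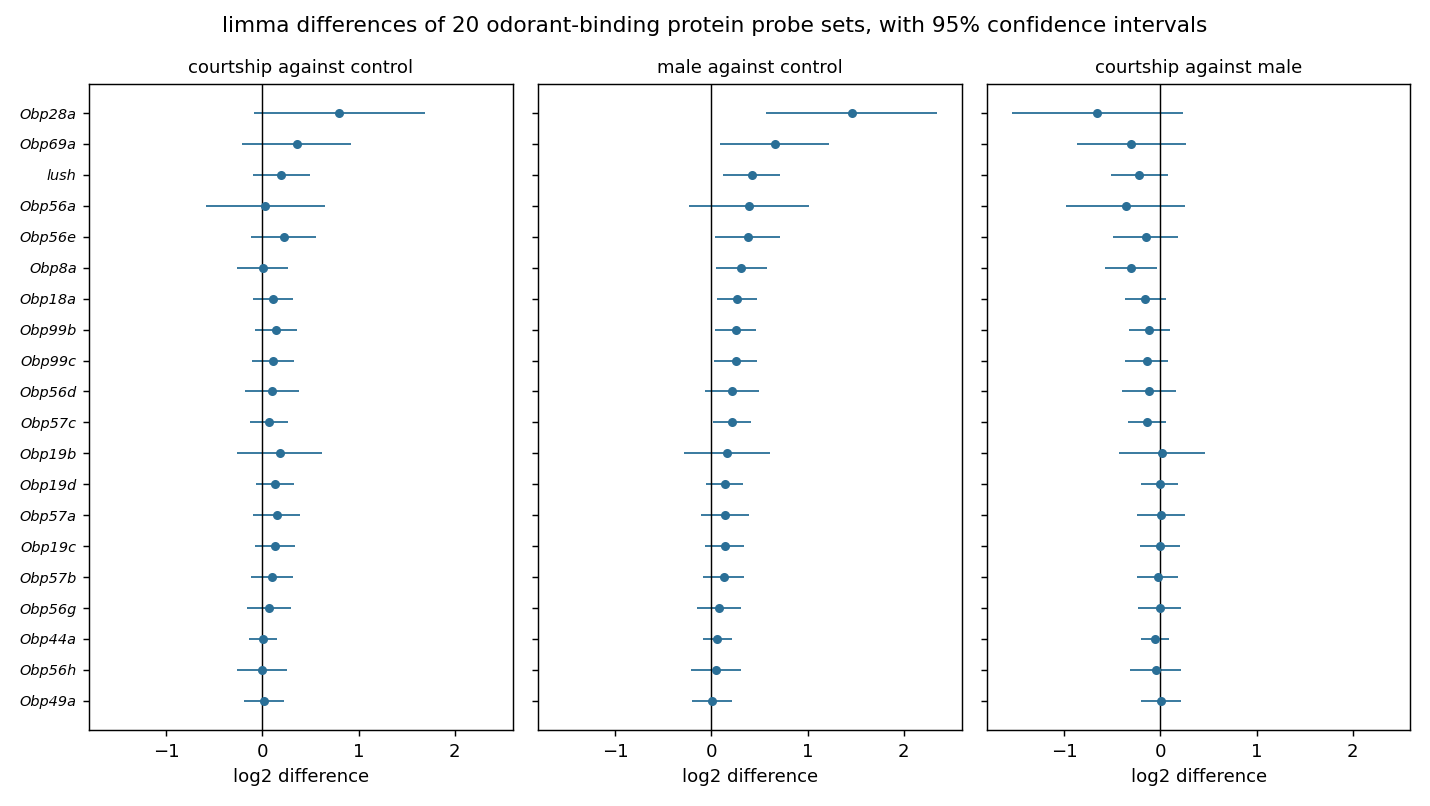
Log2 differences between arms (horizontal axis) for the 20 members tested, from limma, with 95% confidence intervals as lines and a vertical line at 0. All 20 points are above 0 for male against control, 19 for courtship against control and 3 for courtship against male, and the widest intervals are those of Obp28a.

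In the comparison of males that had been with a female against controls, no difference of a member passed the test, which does not show that the arms were alike. Of the 20 members 0 passed the adjusted threshold in limma, as did 0 of all probe sets tested (0%), and 0 were higher at an unadjusted p under 0.05, against 1.64% of all. The mean was higher in the courtship arm for 19 of 20 members, against 54.4% of all probe sets, the exception being Obp56h (-0.01). The median difference was 0.11, against 0.01 over all probe sets. Each arm serves in 2 of the 3 comparisons, so these share arrays and are not separate evidence.

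Obp28a again had the largest difference, 0.80 ± 0.42 (SE), with a 95% confidence interval from -0.09 to 1.69 and a limma adjusted p of 0.999. Courtship replicates 4 and 5 (8.39 and 7.86) were above all controls, and replicate 2 (5.85) was below all of them. The next members by p were Obp19d at 0.13 ± 0.09, lush at 0.20 ± 0.14, Obp99b at 0.14 ± 0.10 and Obp56e at 0.22 ± 0.16 (SE). In MAS5 the difference of lush had the opposite sign, at -0.18. By group, the medians were 0.28 for the antennal members, 0.10 for taste, 0.07 for seminal fluid and 0.12 for the head beyond sensilla. The median over all 20 moved with single pools: without courtship replicate 2 it was larger, at 0.18. It stayed positive whichever single array was left out.

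In courtship against male, 0 members and 0 of all probe sets (0%) passed the adjusted threshold in limma. The courtship mean was lower for 17 of 20 members, against 51.9% of all probe sets, and Obp49a, Obp57a and Obp19b were the 3 exceptions. The median was -0.12, against -0.01 over all. At an unadjusted p under 0.05, 1 of 20 members was lower, Obp8a, against 7.21% of all probe sets. Obp8a differed by -0.31 ± 0.12 (SE, limma adjusted p = 0.325), with an interval of -0.57 to -0.04. Obp28a differed by -0.66 ± 0.42, with an interval of -1.55 to 0.23, and lush by -0.22 ± 0.14 (SE). Obp18a (-0.16 ± 0.10) and Obp57c (-0.14 ± 0.09) followed. The median was -0.07 without courtship replicate 1, -0.04 without courtship replicate 2 and -0.07 without male replicates 1 and 5.

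The members tended to stand high or low together on an array. Courtship replicate 5 and male replicates 2 and 3 had all 20 members above the control mean, while courtship replicate 2 had 4 and male replicate 4 had 9. The median over members, less the control mean, was 0.27, 0.22, 0.34, -0.05 and 0.20 on the male arrays. On the courtship arrays it was -0.01, -0.10, 0.24, 0.22 and 0.28, and on the control arrays it lay between -0.05 and 0.07. Courtship arrays thus fell on both sides of the controls. Courtship replicate 2 was the lowest of the 15 arrays for 6 members and control replicate 1 for 5, and male replicate 1 was the highest for 6. Such counts were not made over all probe sets, so they do not show a trait particular to these genes.

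**Figure D4:**
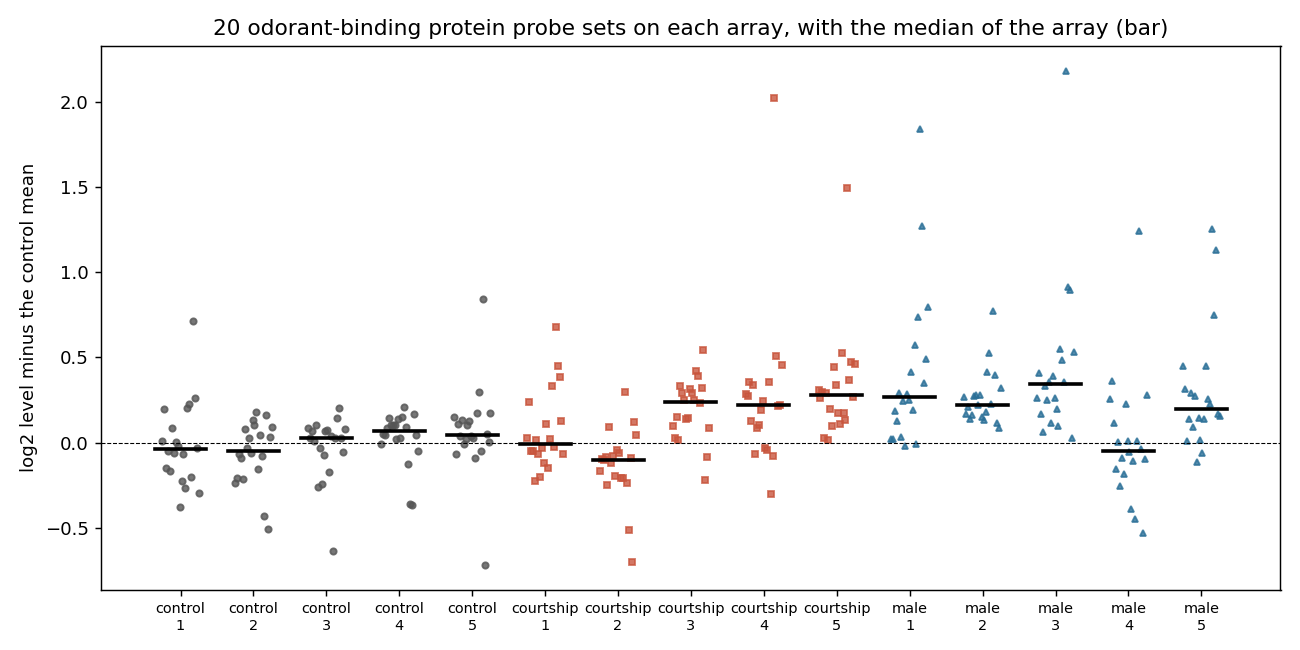
Log2 level minus the control mean (vertical axis) of each of the 20 members tested, by array (horizontal axis), with the array's median as a bar. Male replicates 1, 2, 3 and 5 have medians of 0.20 to 0.34 and male replicate 4 one of -0.05; courtship replicates 3 to 5 lie at 0.22 to 0.28 and replicates 1 and 2 at -0.01 and -0.10.

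The other gene lists had these differences between the male and control arms. The 4 tested proteins of the sensillum fluid other than odorant-binding proteins had a median difference of 0.35 against control, with 4 of 4 higher and 0 called. Among them Phk-3 differed by 0.36 ± 0.14 (SE, limma adjusted p = 0.0913), and Snmp1 of the neurons by 0.03 ± 0.07. The medians were 0.15 for the 2 odorant receptors and 0.05 for the 3 ionotropic receptors tested, and the CheA gene tested, CheA87a, differed by -0.16. None of these genes was called in any of the 3 comparisons. In the same arrays the neuron list had means of 7.21 to 8.55 in the male arm and 8.58 to 9.0 in the control arm, with 0 of 6 genes higher, 1 called lower and a median of -0.55. The medians were -0.21 for photoreceptor (0 of 5 higher, 1 called lower) and -0.30 for muscle (0 of 8 higher), and 0.07 for glia (5 of 7 higher) and 0.19 for haemocyte (7 of 9 higher), of which none was called. The part of these lists in the differences of the odorant-binding proteins was not tested.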

How the data were processed

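The authors processed 15 arrays in 5 ways (dChip PM, dChip PM-MM, MAS5, and GC-RMA run once in R and once in GeneSpring) and deposited 75 columns of intensity values, per the labels. GCOS 1.2 and GCRMA stand in the submitters' processing notes. How dChip and MAS5 values were scaled is not given in the sources used here. Log2 was taken here of the deposited R GC-RMA values, and values below 1 in the other processings were set to 1. GC-RMA models background from probe sequence and compresses dim probe sets. Leaving out 183 control probe sets, the 8926 of 18769 with a mean log2 of at least 4 were fitted with limma 3.58.1 in R 4.3.3 (lmFit and eBayes, 1 mean per arm, 12 residual degrees of freedom, two-sided, Benjamini-Hochberg over all probe sets within a contrast at 0.05); the script was tested on simulated data. Figures used Python 3.11.15 with pandas 2.3.3, numpy 2.4.6 and matplotlib 3.10.9. Arrays give no read depth; 5 arrays an arm limit the precision. All 51 symbols matched the current gene table (RefSeq) unchanged. Probe set names ending in s or a (Obp19d and 1 each of Obp19a, Obp19c and Obp59a) can take up more than 1 transcript.

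The members, gene lists and settings were chosen with earlier results of these data known. Values on each array are given for members with known roles in smell or the head, the 5 with the highest means and the 5 with the smallest p in each contrast. Alternatives were the other 4 processings, other filters, scalings, blocks, array weights, covariates, leaving out single arrays and an adjusted p threshold of 0.10, giving 32 settings with the main one for single members. Leaving out male replicates 1 and 5 with control replicate 1 was added after the data had been seen. No sequence or genome was used.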

Additional observations from a re-analysis of the deposited data

Results flagged for a closer look

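Among the 60 groups of 5 arrays (20 members in 3 arms), 9 held a value whose gap to the others passed Dixon's 95% critical value of 0.71. Chance gives about 1 in 20 for independent groups, but these groups share arrays. The rule was not run on the other probe sets, so the count shows nothing particular to these genes. All 9 were low values. Male replicate 4 was low for Obp56h (10.92, others 11.41 to 11.51), Obp57c (12.48, others 12.82 to 12.93), Obp56e (10.67, others 11.19 to 11.35) and Obp44a (13.99, others 14.21 to 14.29). Control replicate 1 was low for Obp57a (10.99, others 11.41 to 11.51) and Obp57b (11.09, others 11.34 to 11.41). Control replicate 3 was low for Obp49a (12.36, others 12.61 to 12.71) and Obp19b (8.60, others 9.27 to 9.53). Courtship replicate 2 was low for Obp69a (6.41, others 6.87 to 7.05).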

How the results depend on the processing

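The count of odorant-binding protein probe sets called in male against control, 0 in the model reported, was 4 at an adjusted p threshold of 0.10 (2083 over all probe sets), 1 with a filter of log2 of at least 4 on at least 5 arrays (Obp83cd, which entered that fit only through the male arm where it was high, so the call supports nothing), 2 after quantile normalization (Obp28a and lush, 743 over all), 1 with only the 2 arms compared (Obp28a, 495 over all), 1 with trend and robust variance (Obp28a, 631 over all), 5 with array weights (Obp28a, Obp99b, Obp99c, Obp18a and lush, 1873 over all) and 1 with a covariate for the 3' to 5' ratio (Obp28a, 1009 over all). Leaving out each array in turn gave 0 to 1: Obp28a without courtship replicate 2 or courtship replicate 5, and Obp57c without male replicate 4. The limma adjusted p of Obp57c without male replicate 4 was 0.05 after rounding. Counts over all probe sets in these fits are not given here, so the single calls cannot be set against a share. With a replicate block it was 3 (Obp28a at an adjusted p of 0.0285, Obp99c at 0.0471 and Obp8a at 0.0498), with 1690 called over all against 327. Deviations of same-numbered arrays correlated at -0.29 to 0.47, over 0.1 in 10 of 15 pairs, and 6 of 15 arrays correlated best with an array of their own number. Since not every pair was over 0.1 and no label ties the numbers to a batch, the numbers were not taken to pair the arrays. The code letters, which the labels do not explain, follow the numbers in part: replicate 1 has the letter A in every arm. A shared batch of same-numbered arrays was therefore not settled. With no filter the median difference in male against control was 0.0209 over 51 members in place of 0.21 over 20. The causes of these changes were not tested, except that fits with other filters hold other probe sets. In courtship against control and courtship against male the count was 0 in every setting. The medians were smallest in dChip PM-MM among the 5 processings, at 0.06 for courtship and 0.09 for male arrays, each against control, and -0.04 for courtship against male. In the same order, leaving out single arrays gave 0.08 to 0.18, 0.18 to 0.26 and -0.16 to -0.04, and the sample code letter as a block 0.07, 0.15 and -0.11. Dim probe sets limit what can be said of the 31 members below the filter.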
